A study of Homo sapiens with 60 samples.

Results

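SW1783, an established human astrocytoma cell line, was treated for 24 h with a 70% ethanol extract of Menthae Herba (mint) at a high dose of 500 µg/mL and compared with cells given the solvent DMSO alone. All 6 libraries of these 2 groups, 3 per group, were taken by their titles from the 60 libraries of the series, in which this line received extracts of several herbs and herbal mixtures. The comparison asks which genes differ in expression between the high dose and vehicle, and it covered 18601 genes that passed the filter on low counts, of 60675 gene identifiers. Menthae Herba at 20 µg/mL (low dose, 3 libraries) served as a check, because the high-dose and low-dose library names carry one set number and the vehicle names another, so that extract and name set cannot be told apart against vehicle. The medium dose of 100 µg/mL (3 libraries) is given as values only.

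All cells grew in L-15 medium with 10% serum. DMSO is given as 0.1% in the sample records and as 2% in the series text, and which one applies is not settled. The source does not say whether replicates are separate cultures, so the spread behind the p-values may be technical. That spread was estimated within groups over all 60 libraries of the series, not from these 6 libraries alone. Results from 1 line of tumour origin describe that line only. Of 19 astrocyte and glioma markers, 11 passed the filter. GFAP, S100B and SOX2, which define astrocytes and neural stem cells, did not, with no more than 8, 5 and 1 expected counts in any of the 6 libraries. VIM, an intermediate filament of mesenchymal and glial cells, was at 5179 to 5268 CPM (counts scaled to the TMM-adjusted library total) in vehicle and 4841 to 5456 CPM at the high dose, with a log2 difference of 0.01 (adjusted p = 0.97). VIM, HSPA5, MT1X, MT2A, MTF1, SLC30A1 and TUBA1B-AS1 were chosen after their values were seen.

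Cells that lack amino acids, or whose endoplasmic reticulum (ER), haem supply or mitochondria are disturbed, phosphorylate the translation factor eIF2. Most translation then slows while the transcription factor ATF4 is made, and ATF4 with its partners switches on genes for amino acid synthesis, amino acid import and tRNA charging. This is the integrated stress response. Collagens, fibronectin, tenascin and proteoglycans, on the other side, form the extracellular matrix that astrocytoma cells secrete and adhere to through integrins.

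Expected counts per library were 25186538 to 26477754 in vehicle, 22765620 to 32206540 at the high dose and 23290850 to 30527693 at the low dose. High replicate 3 stood apart. The slope of log2 level against log2 transcript length, relative to the vehicle mean, was -0.51 in it, against -0.09 and -0.14 in high replicates 1 and 2, -0.04 to 0.00 at the low dose and -0.05 to 0.04 in vehicle. Its share of counts on ribosomal protein genes, which have short transcripts, was 6.02%, against 3.69% and 3.88% in the other high-dose libraries and 2.67% to 3.07% in vehicle. Short transcripts were therefore relatively higher and long ones relatively lower in it, and the main results are given with and without it.

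**Figure D1:**
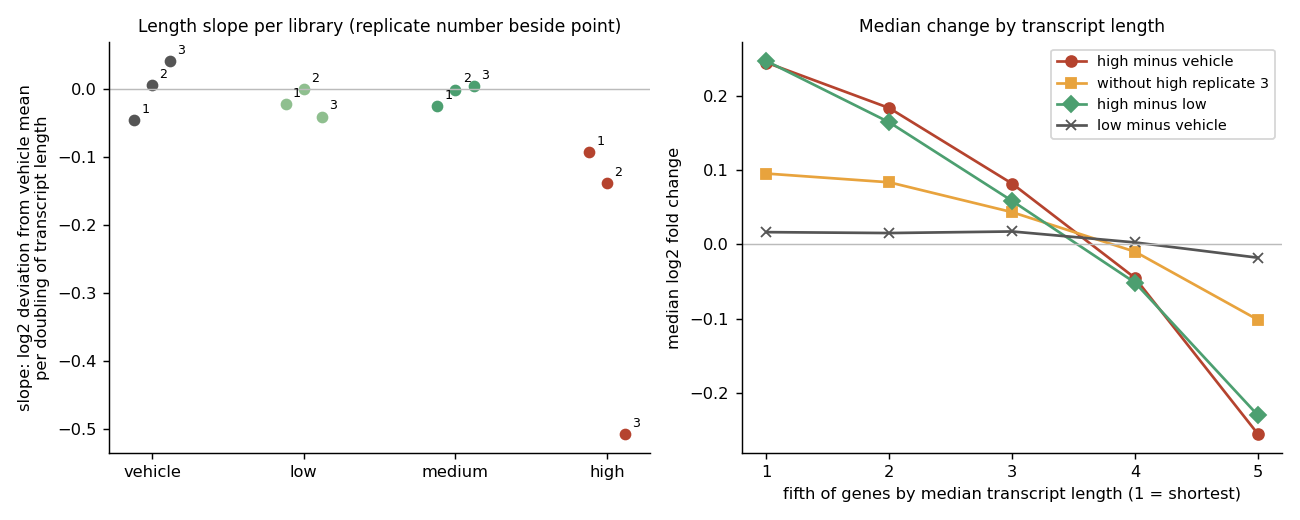
Left, the slope of log2 deviation from the vehicle mean per doubling of transcript length, 1 point per library with its replicate number, by dose of Menthae Herba. Right, the median log2 fold change of genes in 5 equal groups of transcript length: high replicate 3 lies at -0.51, and the high-dose medians run from 0.24 for the shortest to -0.26 for the longest genes, or from 0.10 to -0.10 without it.

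Between the high dose and vehicle, 4460 of 18601 genes (24.0%) were called at adjusted p under 0.05, of which 2080 (11.2%) were higher and 2380 (12.8%) lower. These 11.2% and 12.8% are the background for the counts of each list below in this fit. The lists were chosen with earlier results of these data known, so a share above the background is a description and not a test. The median log2 fold change over all tested genes was 0.02. The 3 high-dose libraries lay above all vehicle libraries for 19.8% of genes and below them for 21.0%. A change of at least 2-fold was found for 285 of the higher and 676 of the lower genes, and of at least 4-fold for 39 and 81. Called higher genes had a median transcript length of 1847 bases and called lower genes one of 3594 bases. The part of the length slope in these calls was not tested beyond the alternatives given beside the lists.

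Without high replicate 3, 1239 genes were higher and 1649 lower, and 1096 and 1554 of the calls of the full comparison remained. High against low dose, which uses no vehicle library, called 3065 genes (16.5%), 1197 higher (6.44%) and 1868 lower (10.0%), and 878 and 1597 of the calls against vehicle were among them in the same direction. The low dose itself differed from vehicle in 100 genes (0.538%), 54 of them higher (0.290%) and 46 lower (0.247%). That count depends on the fit: with only the low-dose and vehicle libraries in it, 1192 genes were higher and 1358 lower at the low dose. The medium dose differed in 203 genes (1.09%), 108 higher (0.581%) and 95 lower (0.511%). With only the 6 libraries in the edgeR fit, 689 genes were higher and 1132 lower of 16028 tested, with a smallest adjusted p of 0.0013. Leaving out vehicle replicate 3 gave 1357 and 1808. These comparisons share libraries and are not independent.

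**Figure D2:**
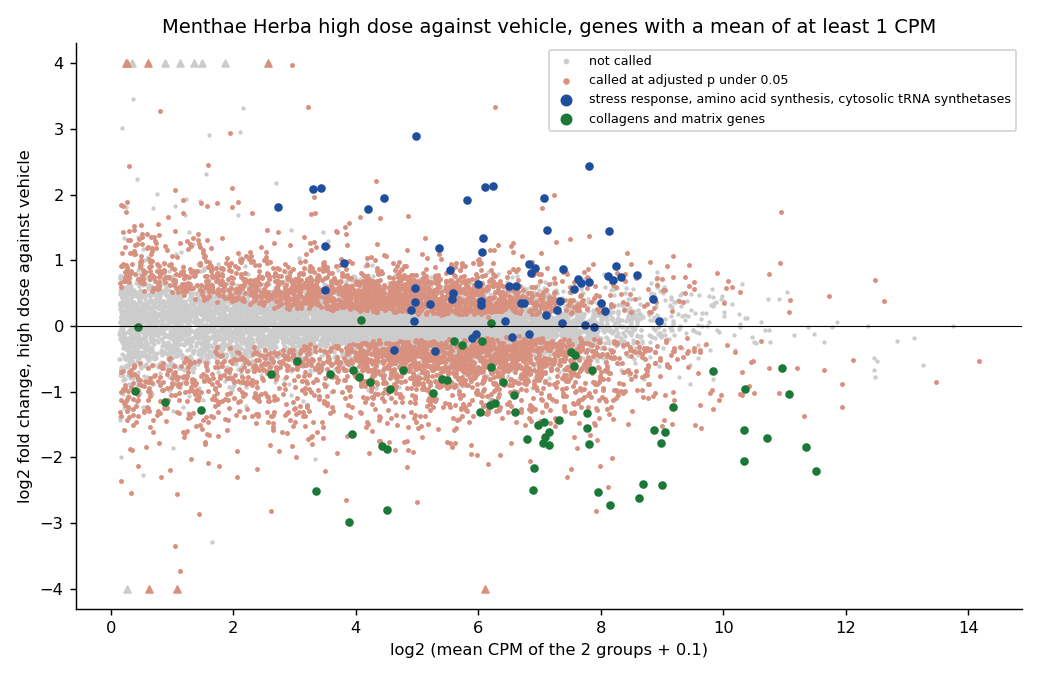
The log2 fold change of high dose against vehicle (vertical) against the log2 of the mean CPM of the 2 groups plus 0.1 (horizontal) for the 13987 genes with a mean of at least 1 CPM; 14 genes beyond a log2 fold change of 4 are drawn as triangles at the edge. Blue points are stress response, amino acid synthesis and cytosolic tRNA synthetase genes and lie mostly above 0; green points are collagens and other matrix genes and lie mostly below 0.

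Genes of the integrated stress response were higher together. Of 24 tested, 15 were higher and 0 lower, where 11.2% of all genes were higher, and the median log2 fold change was 0.88. Without high replicate 3, 15 were higher and 1 lower (median 0.87), as against the low dose (median 0.80), and with only the 6 libraries in the fit 15 were higher and 0 lower. With the length slope as a covariate the median was 0.83. Against vehicle, the low dose had a median of -0.05 over these genes.

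The kinases that phosphorylate eIF2 did not pass the test. EIF2AK1 (haem-regulated kinase), EIF2AK2 (PKR), EIF2AK3 (PERK) and EIF2AK4 (GCN2) had log2 fold changes of -0.01, -0.11, -0.36 and -0.17, with adjusted p of 0.93, 0.68, 0.19 and 0.24. These are transcript levels and say nothing of kinase activity.

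ATF4, the central transcription factor, was at 160, 153 and 139 CPM in the vehicle libraries and at 359, 411 and 460 CPM at the high dose. The groups did not overlap, and the low and medium doses averaged 144 and 162 CPM, at the vehicle level. The log2 fold change was 1.44 ± 0.11 (SE, adjusted p = 3.1e-13). DDIT3 (CHOP), a stress-induced partner of ATF4, was at 25.0, 24.3 and 21.3 CPM in vehicle and at 74.1, 70.4 and 123 CPM at the high dose. Replicate 3 was the highest, and without it the log2 fold change went from 1.92 ± 0.26 (adjusted p = 3.7e-07) to 1.63 (adjusted p = 1.9e-05). DDIT3 overlaps MARS1 by 982 and MBD6 by 1028 bases on the other strand. Since the strand setting of the counting is not given, the size of its rise is less certain.

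Of 8 transcription factors of the response, 6 were higher. ATF3, a repressor induced by many stresses, was at 3.19, 2.27 and 3.26 CPM in vehicle and 10.1, 9.49 and 11.0 CPM at the high dose, with a log2 fold change of 1.81 ± 0.16 (adjusted p = 1.4e-11). NUPR1, a stress-induced chromatin protein, rose by 1.94 on the log2 scale, CEBPG, a dimer partner of ATF4, by 1.13 and JDP2 by 0.96, with adjusted p of 3.2e-08, 3.9e-11 and 3.6e-06. CEBPB (0.64, adjusted p = 0.10) and ATF5 (-0.38, adjusted p = 0.15) did not pass. ATF5 was called lower without high replicate 3 (log2 fold change -0.59, adjusted p = 0.047).

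Of 8 effectors and feedback genes, 6 were higher. CHAC1, which degrades glutathione, was at 6.99, 8.11 and 7.50 CPM in vehicle and 46.8, 54.2 and 66.4 CPM at the high dose. Its log2 fold change was 2.89 ± 0.17 (adjusted p = 2.1e-16), and the low and medium doses averaged 6.35 and 7.11 CPM. TRIB3, a pseudokinase that restrains ATF4, was at 28.6, 28.0 and 27.6 CPM in vehicle and 108, 104 and 157 CPM at the high dose (2.13 ± 0.18, adjusted p = 3.2e-12). Both genes are among the 15 named rises, for which groups without overlap were a condition.

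Brakes on the growth kinase mTORC1 were among them. SESN2, a leucine sensor that inhibits mTORC1, was at 25.4, 25.7 and 26.7 CPM in vehicle and 116, 112 and 110 CPM at the high dose, with a log2 fold change of 2.11 ± 0.06 (adjusted p = 1.5e-26). DDIT4 (REDD1), another mTORC1 inhibitor, was at 76.2, 64.4 and 67.8 CPM against 318, 327 and 486 CPM (2.44 ± 0.19, adjusted p = 1.0e-12). SESN2 differed little among the 3 high-dose libraries, whereas DDIT4 was highest in replicate 3. PPP1R15A (GADD34), which brings a phosphatase to eIF2, rose by 0.81 (adjusted p = 1.0e-07), while its constitutive relative PPP1R15B had -0.12 (adjusted p = 0.66).

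Of 4 secreted products, 3 were higher. GDF15, a stress hormone, was at 3.97, 3.57 and 3.69 CPM in vehicle and 14.6, 13.9 and 19.1 CPM at the high dose (2.08 ± 0.18, adjusted p = 7.8e-12). ADM2, a peptide hormone, rose by 2.10 and VEGFA, the angiogenic growth factor, by 0.78 on the log2 scale (adjusted p = 1.1e-14 and 2.6e-08). STC2 had 0.08 (adjusted p = 0.37), and FGF21 was not tested, with at most 1 expected count. TNFRSF10B (DR5), a death receptor, rose by 0.32 (adjusted p = 0.0038).

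**Figure D3:**
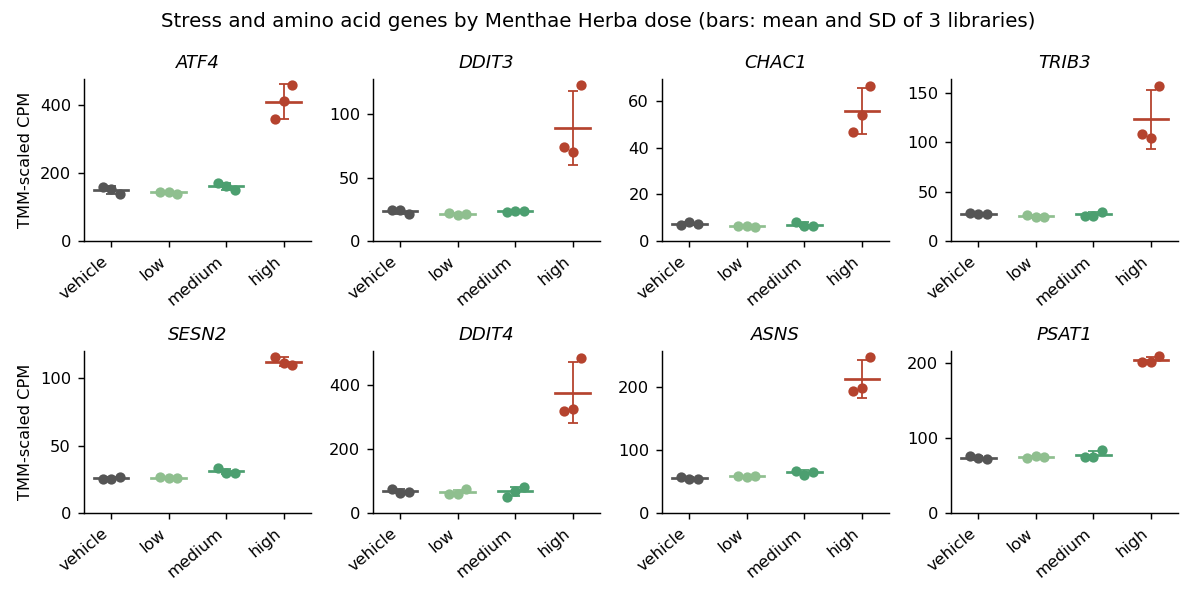
TMM-scaled CPM of 8 genes of the stress response and of amino acid synthesis in each library (points), with the mean and SD of 3 libraries, for vehicle and the low, medium and high doses of Menthae Herba. In each panel the 3 high-dose points lie above all others, for CHAC1 at 46.8 to 66.4 CPM against 6.99 to 8.11 CPM in vehicle.

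Amino acid synthesis genes were higher in 16 of 20 and lower in 0, with a median log2 fold change of 0.71. Without high replicate 3, 13 were higher (median 0.64), and with the 6 libraries alone 13. All 8 genes of serine and one-carbon metabolism were higher, among them PHGDH (1.34), PSAT1 (1.47), SHMT2 (0.87), MTHFD2 (0.94) and ALDH1L2 (1.19). SHMT1 (0.33) lost its call without high replicate 3 (adjusted p = 0.32).

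PSAT1, the second enzyme of serine synthesis, was at 76.2, 73.2 and 71.6 CPM in vehicle and 201, 201 and 209 CPM at the high dose (adjusted p = 3.3e-16). ASNS, which makes asparagine, was at 57.1, 55.0 and 54.7 CPM in vehicle and 194, 199 and 248 CPM at the high dose (1.94 ± 0.12, adjusted p = 2.2e-15). Neither gene's groups overlapped, which for ASNS was a condition of being named. PSAT1 and ASNS averaged 75.2 and 58.5 CPM at the low dose. Enzymes that turn homocysteine into cysteine rose, CBS by 1.77 (adjusted p = 6.5e-12) and CTH by 1.22 (adjusted p = 3.9e-07). GPT2, a mitochondrial alanine aminotransferase, rose by 0.85 (adjusted p = 1.5e-11). ALDH18A1, PYCR3, BCAT1 and GLUL did not pass the test, at 0.16, 0.24, 0.36 and -0.19, with adjusted p of 0.21, 0.45, 0.27 and 0.072.

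Amino acid transporters did not move as a group. Of 18, 4 were higher and 6 lower, with a median of -0.11, and without high replicate 3 the counts were 4 and 3. The first counts are 22.2% and 33.3%, beside 11.2% and 12.8% of all genes. The median was -0.27 against the low dose and 0.10 with the length slope as a covariate. SLC7A5, the light chain of the large neutral amino acid exchanger, rose by 0.67 (adjusted p = 6.2e-09), SLC6A9, a glycine transporter, by 0.60 and SLC1A4 by 0.43. SLC3A2, the heavy chain partner of SLC7A5, rose by 0.73 (adjusted p = 0.0063), but its call was lost without high replicate 3 (adjusted p = 0.12). SLC1A3, a glial glutamate transporter, fell by 1.28, and SLC7A8 fell by 1.21 (adjusted p = 8.2e-08 and 3.4e-05). SLC7A11, the cystine importer, was at 119, 138 and 142 CPM in vehicle and 234, 181 and 91.0 CPM at the high dose. High replicate 3 lay below every vehicle library there and the others above, and the log2 fold change of 0.35 (adjusted p = 0.26) became 0.66 (adjusted p = 0.021) without it.

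Enzymes that charge tRNAs in the cytosol were higher in 15 of 20 and lower in 0, with a median of 0.48 (0.525 without high replicate 3, with 13 higher). GARS1 rose by 0.92, AARS1 by 0.76 and WARS1 by 0.75 on the log2 scale (adjusted p = 1.2e-08, 4.6e-14 and 2.0e-11). AARS1, the alanine enzyme, was at 207, 203 and 209 CPM in vehicle and 347, 351 and 352 CPM at the high dose. Their mitochondrial counterparts were higher in 3 of 17 (17.6%, beside 11.2% of all genes), with a median of 0.13.

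ATF4 dimers bind a CEBP-ATF response element, for which the letters TGATGNAA were searched on either strand in RefSeq promoters (GRCh38.p14), 250 bases before to 50 after each start. The motif was found in 3.67% of all 27305 promoters and in 1.78% of the 12255 that belong to tested genes. Among genes of the stress response, amino acid synthesis, amino acid transport and cytosolic tRNA synthetase lists with a promoter in the table, it was in 12 of 39 that were higher (30.8%) and in 5 of 26 that were not (19.2%). A match is a description of letters and not a bound site. Within the stress response list 3 of 20 promoters held it (15%), among them that of PPP1R15B, which was not called. DDIT4, TRIB3, SESN2 and GDF15, with large rises, had no match. CHAC1, ASNS and ATF3 are shown as holders of the motif with large rises, each as the 250 bases before the start, 5′ to 3′ on the gene's own strand, with the motif in capitals. In CHAC1 it lies on the opposite strand, so that its complement is capitalised.
CHAC1 (chr15:40953221-40953470, plus strand): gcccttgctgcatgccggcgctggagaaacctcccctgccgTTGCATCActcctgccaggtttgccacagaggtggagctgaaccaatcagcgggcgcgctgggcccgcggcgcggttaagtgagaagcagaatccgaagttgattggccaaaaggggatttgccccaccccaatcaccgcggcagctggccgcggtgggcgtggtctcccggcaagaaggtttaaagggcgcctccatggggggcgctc
ASNS (chr7:97872409-97872658, minus strand): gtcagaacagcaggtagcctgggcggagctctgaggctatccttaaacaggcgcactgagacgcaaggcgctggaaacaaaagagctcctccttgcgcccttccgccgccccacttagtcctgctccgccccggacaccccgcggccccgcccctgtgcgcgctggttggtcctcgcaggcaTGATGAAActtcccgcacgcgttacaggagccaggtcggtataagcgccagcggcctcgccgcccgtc
ATF3 (chr1:212565157-212565406, plus strand): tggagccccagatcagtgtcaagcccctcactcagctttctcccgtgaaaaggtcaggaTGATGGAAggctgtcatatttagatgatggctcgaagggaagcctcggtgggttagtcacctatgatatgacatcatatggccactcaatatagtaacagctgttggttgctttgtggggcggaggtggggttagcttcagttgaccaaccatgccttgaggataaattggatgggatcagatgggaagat
Counted from the start, the first base of the motif lies at -209 in CHAC1, -68 in ASNS and -191 in ATF3.

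The ER folding machinery did not rise with ATF4. Of 27 ER chaperones and genes of ER-associated degradation, 4 were higher and 10 lower, with a median of -0.24. These are 14.8% and 37.0%, beside 11.2% and 12.8% of all genes. With the 6 libraries alone 4 were higher and 3 lower. HERPUD1, a component of the degradation pathway, was at 85.8, 82.9 and 79.2 CPM in vehicle and 178, 174 and 182 CPM at the high dose (1.11 ± 0.07, adjusted p = 2.1e-15), though it fell by 0.32 at the low dose (adjusted p = 0.022). XBP1, a transcription factor of the unfolded protein response, rose by 0.82 (adjusted p = 1.0e-08) and MANF, a secreted ER protein, by 0.68 (adjusted p = 0.013), the latter not without high replicate 3. HYOU1, a large ER chaperone, fell by 0.88 (adjusted p = 1.8e-06), CANX (calnexin) fell by 1.02 and SEL1L fell by 1.15, the last not called without high replicate 3 (adjusted p = 0.12).

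HSPA5 (BiP), the main ER chaperone, was at 3430, 3538 and 3485 CPM in vehicle and 3426, 2876 and 2509 CPM at the high dose, with a log2 fold change of -0.25 ± 0.10 (adjusted p = 0.060). All 3 high-dose libraries lay below the vehicle libraries, replicate 1 only just. The ER stress response element ERSE, searched in the same way, was in 22 of all 27305 promoters (0.0806%) and in 7 of 24 of this list, HSPA5 included. Its 250 bases before the start are shown with that element in capitals, with its first base at -66, as a counterpart to the 3 promoters above.
HSPA5 (chr9:125241344-125241593, minus strand): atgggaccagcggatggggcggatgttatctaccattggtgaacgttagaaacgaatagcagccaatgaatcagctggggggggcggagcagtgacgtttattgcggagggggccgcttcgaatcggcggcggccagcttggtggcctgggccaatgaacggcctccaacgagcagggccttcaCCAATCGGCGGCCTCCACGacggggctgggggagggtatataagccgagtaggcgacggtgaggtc
Cytosolic heat shock chaperones were higher in 1 of 16 and lower in 7, with a median of -0.16. These are 6.25% and 43.75%, beside 11.2% and 12.8% of all genes. Against the low dose 2 were lower and 0 higher, with a median of -0.11, and the low dose had a median of -0.14 against vehicle. The 6 libraries alone gave 3 lower and 0 higher. HSPB8 fell by 0.69 (adjusted p = 4.3e-08), HSPH1 fell by 0.74 and HSPA1B fell by 0.54. HSPA1B averaged 89.0 CPM at the low dose against 125 CPM in vehicle, so that high and low did not differ by the test (log2 difference -0.04, adjusted p = 0.81), and its reads can be shared with its near-identical copy HSPA1A.

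NRF2 is a transcription factor for antioxidant and detoxification genes. Of 31 genes of its programme, 16 were higher and 1 lower, with a median of 0.45 (0.38 without high replicate 3, again 16 and 1). With the 6 libraries alone, 10 were higher and 1 lower. All 4 genes of haem and iron handling were higher. HMOX1 (haem oxygenase) was at 61.4, 58.1 and 58.5 CPM in vehicle and 115, 126 and 148 CPM at the high dose (1.13 ± 0.09, adjusted p = 5.5e-12). The ferritin chains FTL and FTH1 rose by 0.96 and 0.80 (adjusted p = 0.00058 and 0.0036), and both averaged less at the low dose than in vehicle. BLVRB (0.69) lost its call without high replicate 3 (adjusted p = 0.40).

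Glutathione and detoxification genes were mixed. GCLC and GCLM, the subunits of the rate-limiting glutathione enzyme, rose by 0.60 and 0.37 (adjusted p = 0.0021 and 0.00091), but against the low dose their differences were 0.33 and 0.10 (adjusted p = 0.13 and 0.46). SRXN1, which repairs peroxiredoxins, rose by 0.60 (adjusted p = 2.8e-08) and NQO1, a quinone reductase, by 0.74 (adjusted p = 3.9e-05). AKR1C1 and AKR1C2, reductases whose reads can be confused with each other, rose by 1.09 and 0.94. NFE2L2 (NRF2 itself), KEAP1 and TXNRD1 did not pass, at 0.25, 0.17 and 0.22, though TXNRD1 was called without high replicate 3 (0.30, adjusted p = 0.029). ABCC1, an export pump, fell by 1.31 (adjusted p = 2.0e-07). BEST1, a chloride channel gene with a log2 fold change of 1.97, overlaps FTH1 on the other strand by 5798 bases, and since the strand setting of the counting is not given its rise is uncertain. BEST1 was at 4.43, 3.69 and 3.86 CPM in vehicle, 7.16 CPM on average at the low dose and 13.2, 11.7 and 22.1 CPM at the high dose.

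Metallothioneins bind zinc and copper. Of 7 tested genes of the list, 5 were higher and 0 lower, with a median of 1.39 (1.19 without high replicate 3). These short genes are near copies of each other, and the median was 0.90 with the length slope as a covariate. MT2A was at 131, 126 and 119 CPM in vehicle and 262, 285 and 423 CPM at the high dose (1.36 ± 0.25, adjusted p = 6.2e-05), and MT1X rose by 1.39 (adjusted p = 2.6e-05). MT2A averaged 157 CPM at the low and 193 CPM at the medium dose. SLC30A1, a zinc exporter, and MTF1, the zinc-sensing factor, did not pass (-0.37 and -0.19, adjusted p = 0.26 and 0.37). The core of the metal response element, TGCACNC on either strand, is common, in 11.9% of all promoters. It was in 3 of the 4 promoters of this list in the table. These were MT1X, MT2A and SLC30A1, the last of which was not called. MT1X is shown with its matches on either strand in capitals.
MT1X (chr16:56682220-56682469, plus strand): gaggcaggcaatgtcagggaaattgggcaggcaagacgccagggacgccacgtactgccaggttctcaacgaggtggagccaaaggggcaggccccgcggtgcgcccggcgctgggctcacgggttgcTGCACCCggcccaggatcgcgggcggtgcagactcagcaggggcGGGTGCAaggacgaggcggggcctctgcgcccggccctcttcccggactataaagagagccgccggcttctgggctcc

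Lipid genes divided by function. Genes that fatty acids induce through PPAR receptors were higher in 11 of 20 and lower in 1, with a median of 0.36 (0.33 without high replicate 3, again 11 and 1). ANGPTL4, a secreted lipase inhibitor, had the largest rise of the named genes and was at 16.4, 11.8 and 13.6 CPM in vehicle and 128, 110 and 184 CPM at the high dose (3.34 ± 0.23, adjusted p = 1.9e-14). PLIN2, the coat protein of lipid droplets, was at 56.3 to 64.7 CPM in vehicle and 228, 235 and 255 CPM at the high dose (1.99 ± 0.08, adjusted p = 1.9e-21). ANGPTL4 and PLIN2 averaged 12.6 and 53.1 CPM at the low dose and 17.6 and 64.6 CPM at the medium dose, near their vehicle levels.

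PDK4, which turns cells from glucose to fat oxidation, was at 0.869, 0.852 and 0.975 CPM in vehicle and 5.13, 6.56 and 3.08 CPM at the high dose (2.45 ± 0.31, adjusted p = 9.7e-08). Among enzymes and carriers of fat oxidation, 8 of 10 were higher, ACAA2 by 1.04 (adjusted p = 3.6e-10), ACADVL by 0.79, SLC25A20 by 0.68 and CPT2 by 0.33. CPT1A, the gatekeeper of mitochondrial fat oxidation, had 0.06 (adjusted p = 0.65). The receptors PPARA, PPARD and PPARG did not pass (-0.37, -0.15 and -0.07), and RXRA, their shared partner, fell by 0.46 (adjusted p = 3.4e-05).

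Genes of cholesterol synthesis and uptake were lower or not called. Of 25, 11 were lower and 0 higher, where 12.8% of all genes were lower, with a median of -0.27 (-0.33 without high replicate 3, -0.46 against the low dose), and with the 6 libraries alone 8 were lower. Of the 20 synthesis enzymes 7 were lower, and of the 5 genes of uptake and control 4. Fatty acid synthesis was lower in 9 of 15 and higher in 0 (median -0.45), with SCD at -0.97, ACACA at -0.79 and FADS2 at -0.73 (adjusted p = 0.00085, 0.0045 and 4.3e-09). Without high replicate 3 its lower genes were 6, and ACACA lost its call.

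Genes of the extracellular matrix were lower across nearly all families listed. Of 23 collagens, 21 were lower and 0 higher, with a median log2 fold change of -1.35. The median was -1.27 without high replicate 3 (20 lower), -1.38 against the low dose (21 lower) and -1.12 with the length slope as a covariate (21 lower, 1 higher). With the 6 libraries alone 19 were lower. The low dose had a median of -0.06 against vehicle.

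All 7 fibrillar collagens were lower. COL1A1, the main chain of type I collagen, was at 4140, 4135 and 3933 CPM in vehicle and 1407, 1114 and 900.3 CPM at the high dose (-1.84 ± 0.11, adjusted p = 1.4e-15). The low dose averaged 3189 CPM, between the 2, with a log2 difference of -0.35 from vehicle (adjusted p = 0.14). COL1A2, COL3A1 and COL5A1 were lower, at -1.58, -1.87 and -1.70. COL12A1, a fibril-associated collagen, was at 380, 442 and 438 CPM in vehicle and 118, 75.6 and 25.9 CPM at the high dose (-2.52 ± 0.42, adjusted p = 1.7e-05). Replicate 3 was the lowest, and the value was -2.11 without it and -1.74 with the length covariate.

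Basement membrane collagens COL4A1 and COL4A2 were lower, at -1.79 and -1.61 (adjusted p = 2.9e-09 and 3.8e-16). COL6A3 was at -2.49, COL6A1 at -0.96 and COL6A2 at -0.69, chains of the same protein (adjusted p = 1.2e-07, 7.5e-12 and 0.00014). COL18A1 and COL16A1 were lower, at -1.20 and -0.82, and were no lower in replicate 3 than in replicate 2. COL4A3 (0.91, adjusted p = 0.12) and COL27A1 (0.09, adjusted p = 0.62) did not pass, and COL7A1 (-0.43) lost its call without high replicate 3 (adjusted p = 0.056). Among 16 collagen-processing enzymes 12 were lower and 0 higher (median -0.58). ADAMTS2, which trims procollagen, fell by 1.16, and the cross-linking enzymes LOXL2 and LOXL3 were at -0.98 and -0.88 (adjusted p = 7.0e-10, 8.8e-11 and 4.1e-09).

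Other matrix genes were lower in 43 of 48 and higher in 0, with a median of -1.17. Without high replicate 3 the median was -0.94 and 41 were lower, and against the low dose it was -1.07 and 43 were lower. With the 6 libraries alone 39 were lower. All 13 proteoglycans, 17 of 19 glycoproteins and 9 of 10 laminins were lower.

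FN1 (fibronectin) was at 4473, 4987 and 5033 CPM in vehicle and 1544, 1097 and 485.5 CPM at the high dose (-2.21 ± 0.34, adjusted p = 4.7e-06). TNC, a tenascin of glioma matrix, was at 824, 884 and 873 CPM against 230, 168 and 86.6 CPM (-2.41 ± 0.30, adjusted p = 7.5e-08). In each, replicate 1 was the highest and replicate 3 the lowest of the high-dose libraries. None reached the vehicle range, which was a condition for naming both genes. HSPG2 (perlecan), a basement membrane proteoglycan, was at 476, 498 and 502 CPM in vehicle and 103, 74.0 and 45.9 CPM at the high dose (-2.73 ± 0.28, adjusted p = 7.9e-10). VCAN (versican), a hyaluronan-binding proteoglycan, was at 598, 703 and 737 CPM against 173, 111 and 46.1 CPM (-2.62 ± 0.34, adjusted p = 1.7e-07). HMCN1, a giant matrix protein, was lower at -2.79, and the fibrillins FBN1 and FBN2 were at -2.40 and -2.51.

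CEMIP, which takes part in hyaluronan breakdown, had the largest fall of the named genes. It was at 26.0, 25.5 and 27.0 CPM in vehicle and 4.29, 3.56 and 2.01 CPM at the high dose (-2.99 ± 0.32, adjusted p = 2.8e-09), and it lies on chr15:80779343-80951776 (plus strand, GRCh38). Named falls that overlap a protein-coding gene on the other strand are CEMIP (MESD, 5488 bases), HSPG2 (LDLRAD2, 2977), FBN2 (SLC27A6, 121173), TNC (DELEC1, 98680) and LRP1 (STAT6, 3647). With the strand setting of the counting not given, the size of their falls is less certain. A call without high replicate 3 was a condition for being named, so that setting is no check of these genes. Without that library the 15 named falls had absolute log2 values of 1.86 to 2.73. With the 6 libraries alone, which was no condition, they stayed called (highest adjusted p 0.0453). With the length covariate their absolute log2 values were 1.52 to 2.42. The 15 named rises also stayed called with the 6 libraries alone and with the covariate. Their absolute log2 values were 1.63 to 3.10 without high replicate 3 and 1.25 to 2.86 with the covariate.

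**Figure D4:**
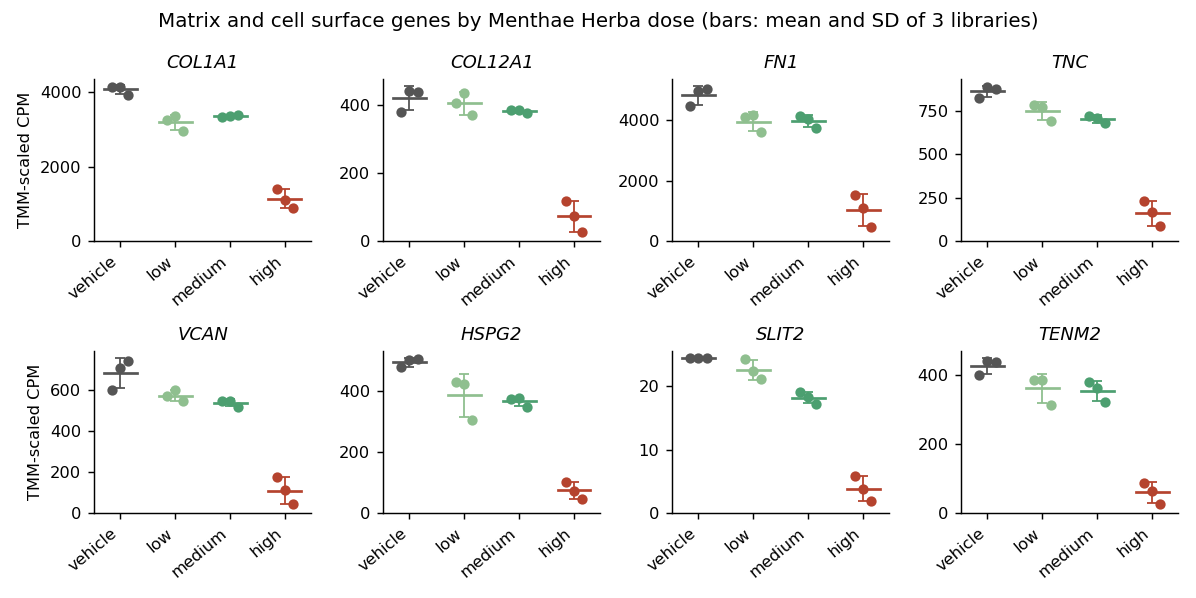
TMM-scaled CPM of 8 matrix and cell surface genes in each library (points), with the mean and SD of 3 libraries, for vehicle and the low, medium and high doses of Menthae Herba. The high-dose points lie below all others in each panel, for COL1A1 at 900.3 to 1407 CPM against 3933 to 4140 CPM in vehicle, and spread more than the vehicle points for COL12A1 and FN1.

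Receptors and surface proteins that meet the matrix fell with it. Integrins, the matrix receptors, were lower in 13 of 17 and higher in 0 (median -1.05). ITGA4, ITGAV and ITGB8 were lower, at -1.49, -1.40 and -1.38 (adjusted p = 0.029, 0.0077 and 0.00052). ITGA4 and ITGAV lost their calls without high replicate 3, where 10 integrins were lower and the median was -0.92, and with the 6 libraries alone 7 were lower. Giant cadherins, teneurins and LDL receptor-related proteins, which have among the longest coding sequences, were lower in 15 of 17 and higher in 0 (median -1.74, -1.52 without high replicate 3 and -1.26 with the length covariate). As with the other lists, its members were chosen with earlier results of these data known. TENM2, a synaptic adhesion protein, was at 398, 438 and 436 CPM in vehicle and 88.1, 64.2 and 27.7 CPM at the high dose (-2.82 ± 0.27, adjusted p = 1.7e-10). FAT1 and FAT4, atypical cadherins, were lower at -2.45 and -2.67, and LRP1, an endocytic receptor, fell by 2.29. LRP1B was at 3.90 ± 0.24 CPM in vehicle and 0.275 ± 0.164 CPM at the high dose (SD, n = 3).

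Axon guidance genes were lower in 29 of 33 and higher in 0 (median -1.22, and -1.15 with 27 lower without high replicate 3). All 17 receptors and 12 of 16 ligands were lower. SLIT2, a secreted repellent, was at 24.4 CPM in each of the vehicle libraries and at 5.88, 3.86 and 1.93 CPM at the high dose (-2.65 ± 0.32, adjusted p = 4.1e-08). UNC5C, a netrin receptor, fell by 2.56. ROBO2, a receptor of SLIT proteins, was listed at 0 in all 3 high-dose libraries and averaged 0.165 CPM in vehicle, and no fold is given. Wnt and Notch genes were lower in 14 of 21 and higher in 0 (median -0.71, and -0.64 with 13 lower without high replicate 3). The receptors NOTCH1, NOTCH2 and NOTCH3 were lower, at -1.84, -2.01 and -1.46 (adjusted p = 7.3e-06, 7.3e-05 and 5.9e-08).

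Targets of signalling pathways tied to the matrix and the cytoskeleton were lower or not called. YAP and SRF targets, which respond to cell tension, were lower in 14 of 20 and higher in 0 (median -0.57). Without high replicate 3, 10 of them were lower (median -0.48). ANKRD1, a YAP target, averaged 9.19 ± 0.86 CPM in vehicle, 13.8 CPM at the low dose and 3.06 ± 0.31 CPM at the high dose (-1.58, adjusted p = 6.9e-10). CCN1, a matricellular protein, and the receptor kinase AXL were lower, at -1.29 and -1.13. In the TGF-beta pathway 8 of 13 were lower and 0 higher (median -0.56, and -0.57 with 7 lower without high replicate 3). TGFBR3, a co-receptor, was at -1.47 (adjusted p = 3.9e-07). TGFB2 (-1.50) lost its call without high replicate 3 (adjusted p = 0.06). Targets and regulators of BMP signalling were lower in 7 of 12 (median -0.70, and -0.87 with 8 lower without high replicate 3). BMP4 was at -1.34 and ID4 at -1.11. Of coagulation and plasminogen genes, 6 of 10 were lower and 1 higher, and without high replicate 3, 5 were lower and 2 higher. PLAT, the tissue plasminogen activator, was at -0.99 (adjusted p = 1.1e-14) and F3 at -0.75.

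Hypoxia and glycolysis genes were higher in 17 of 31 and lower in 1 (median 0.41), and in 11 without high replicate 3 (median 0.32) and 10 with the 6 libraries alone. NDRG1, a stress-responsive gene of this list, was at 60.5, 59.1 and 57.8 CPM in vehicle, 84.8 CPM on average at the medium dose and 196, 206 and 212 CPM at the high dose (1.79 ± 0.06, adjusted p = 5.3e-25). BNIP3, a mitophagy receptor, and ALDOC, a glycolytic enzyme, rose by 1.33 and 1.56 (adjusted p = 1.5e-13 and 1.1e-09). CA12 was the lower one (-0.21), and its call was lost without high replicate 3.

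Of 32 autophagy and lysosome genes, 4 were higher, all of them among the 10 of the autophagy machinery, and 8 lower, all of them among the 14 lysosomal genes. The 4 higher are 12.5% of the list, near the 11.2% of all genes, and the 8 lower are 25%, beside 12.8% of all genes. With the 6 libraries alone, 4 were higher and 4 lower, beside 689 and 1132 of 16028 genes. SQSTM1 (p62) and WIPI1 each rose by 0.68 and GABARAPL1 by 0.54 (adjusted p = 0.00022, 1.2e-09 and 1.3e-05). The lysosomal membrane proteins LAMP1 and LAMP2 were lower, at -0.66 and -0.87 (adjusted p = 4.4e-08 and 1.8e-05).

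Inflammatory genes were higher in 9 of 19 and lower in 4 (median 0.48). Against the low dose 7 were higher and 4 lower, and the median was 0.09, with a median of 0.16 for low against vehicle. IL6 was at 3.44, 3.41 and 3.81 CPM in vehicle and 10.5, 10.2 and 8.01 CPM at the high dose (1.43 ± 0.16, adjusted p = 6.8e-09). IL1A and CXCL3 rose by 1.56 and 1.66 from levels under 1 CPM. CCL2, BIRC3 and the adhesion molecule ICAM1 were lower, at -0.93, -0.68 and -0.65 (adjusted p = 1.9e-06, 0.0021 and 3.1e-09). Interferon-stimulated genes were higher in 6 of 27 (22.2%, beside 11.2% of all genes), led by IRF7 at 0.91 and MX1 at 0.73. Leaving out high replicate 3 gave 4 higher, and with the 6 libraries alone 0 passed.

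Cell cycle genes were called at about the background rate. Of 30 G2/M genes 2 were higher and 5 lower, and of 34 genes of DNA replication 6 were higher and 2 lower, beside 24.0% of all genes called. With the 6 libraries alone, 0 and 1 of the G2/M genes and 1 and 0 of the replication genes were called higher and lower. MKI67, a proliferation marker with a long transcript, was at 352, 406 and 419 CPM in vehicle and 249, 256 and 92.7 CPM at the high dose (-0.98, adjusted p = 0.025), and its call was lost without high replicate 3 (adjusted p = 0.22). CDK1 (0.31) and CCNB2 (0.25) were higher, and neither differed from the low dose by the test. CDK1 was not called without high replicate 3 (adjusted p = 0.052). Of 22 p53 targets 6 were higher and 2 lower, and with the 6 libraries alone 1 and 1. Their median was 0.17, and 0.07 against the low dose. BBC3 (PUMA), which promotes apoptosis, averaged 0.469 ± 0.123 CPM in vehicle and 1.74 ± 0.34 CPM at the high dose (1.88, adjusted p = 6.7e-05), CDKN1A rose by 0.58 and PMAIP1 (NOXA) by 0.90. CCND1 (cyclin D1) fell by 0.54 (adjusted p = 0.00016).

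TRP channels include TRPM8, the receptor of menthol, a constituent of mint oil. TRPM8 was not tested, with at most 8 expected counts in any of the 6 libraries. Of 10 tested channels 1 was higher, TRPM2 at 0.89 (adjusted p = 0.042), a call lost without high replicate 3. That is 10%, near the 11.2% of all genes. In the AhR pathway, which responds to planar aromatic compounds, 3 of 8 genes were higher, and 1 against the low dose, with TIPARP at 0.71, CYP1A1 at 0.82 and ALDH3A1 at 0.91. The 3 are 37.5%, beside 11.2% of all genes, and 6.44% of all genes were higher against the low dose. TIPARP averaged 66.2 CPM at the low dose against 44.9 CPM in vehicle and 73.4 CPM at the high dose, and high and low did not differ by the test (0.15, adjusted p = 0.68). Of 17 circadian clock genes 4 were called, 3 of them higher, beside 24.0% of all genes.

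Several differences from vehicle were present at the low dose as well, where the library-name set changes with the treatment. Genes encoded in mitochondrial DNA were lower in 6 of 13 and higher in 0 (median -0.66), while the median of low against vehicle was -0.87 and that of high against low 0.18, with 0 called. Mitochondrial transcripts took 10.2% ± 0.1 of counts in vehicle, 6.77% ± 0.13 at the low dose and 7.83% ± 0.93 at the high dose (SD, n = 3). EGR1, an immediate early transcription factor, was at 148, 165 and 167 CPM in vehicle and 71.3, 57.5 and 40.4 CPM at the high dose (-1.50, adjusted p = 0.00071), but it averaged 59.2 CPM at the low dose, and high and low differed by -0.07 (adjusted p = 0.92). TUBA1B-AS1, an antisense RNA, was at 136, 136 and 135 CPM in vehicle and below 5 CPM in every Menthae Herba library. Without the strand setting of the counting, its reads and those of TUBA1B cannot be told apart, and for all of these extract and name set cannot be told apart.

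Counts of called ribosomal protein and complex I genes dropped without high replicate 3. Ribosomal proteins were higher in 22 of 80 and lower in 1 (median 0.54). Without high replicate 3, 3 were higher (median 0.24), and with the length slope as a covariate the median was -0.02. Nuclear subunits of respiratory complex I were higher in 11 of 39 (median 0.55), with 3 higher without high replicate 3 (median 0.28) and a median of -0.02 with the covariate. Proteasome subunits had medians of 0.33, 0.13 and -0.04 under the same 3 settings.

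**Figure D5:**
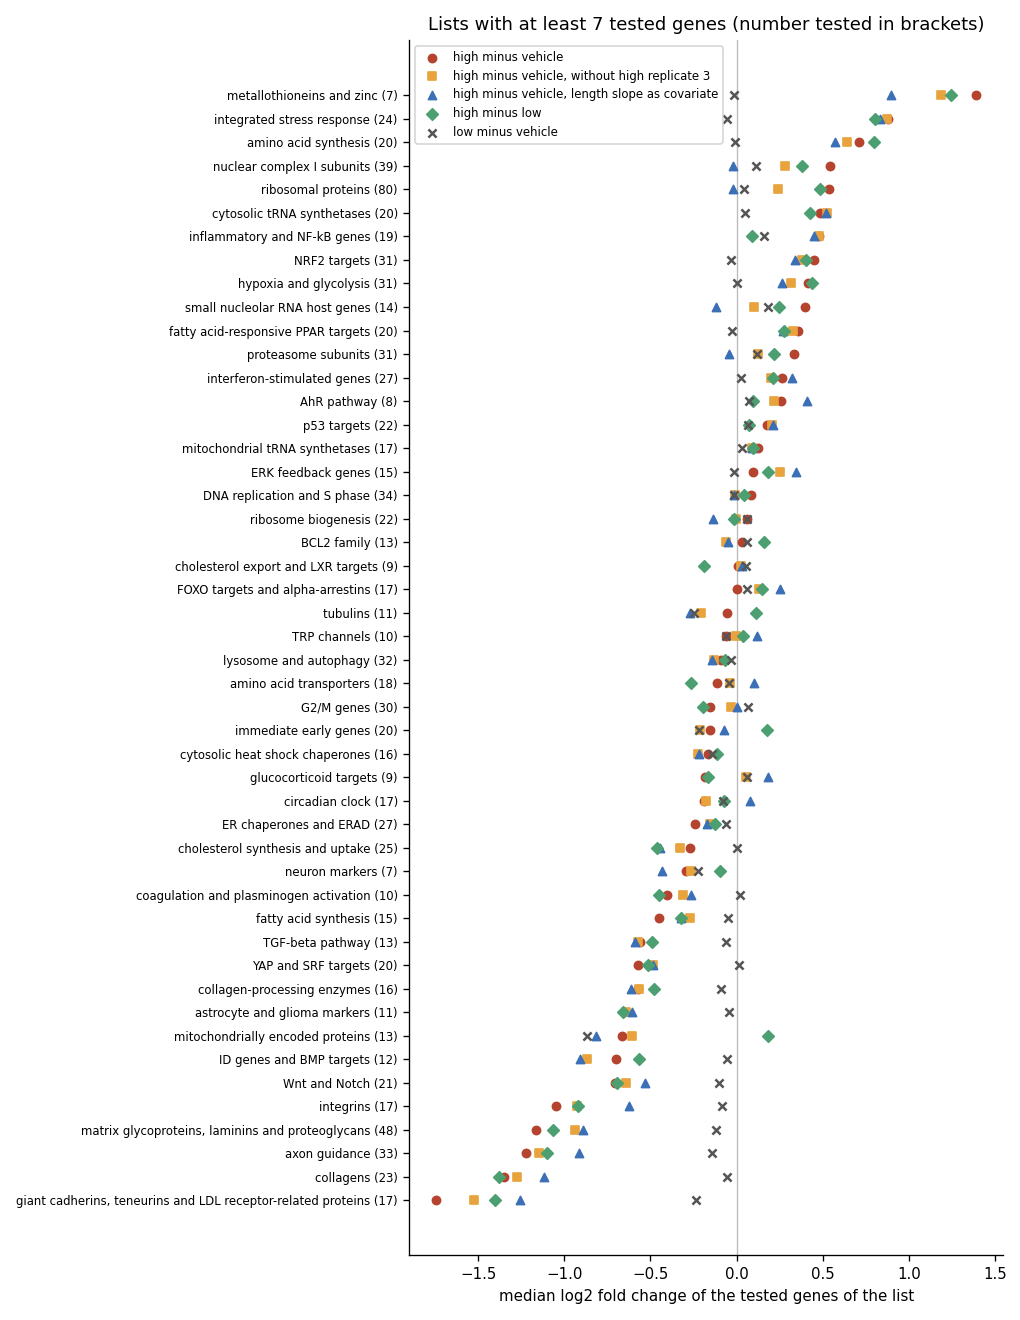
The median log2 fold change of each list with at least 7 tested genes (number in brackets), with 5 symbols per list for high minus vehicle, the same without high replicate 3, the same with the length slope as a covariate, high minus low and low minus vehicle. Stress response, metallothionein and amino acid synthesis lists lie right of 0 and collagen, matrix and cadherin lists left of 0 under the 4 settings that hold the high dose, whereas ribosomal protein and complex I lists move to -0.02 with the covariate.

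Markers of glial tumour cells were lower in 7 of 11 (median -0.65), with EGFR at 321, 365 and 381 CPM in vehicle and 182, 141 and 49.9 CPM at the high dose (-1.51, adjusted p = 0.0036, and -1.13, adjusted p = 0.0497, without high replicate 3). PDGFRA fell by 1.20 (adjusted p = 0.00039). In bulk RNA, fewer cells of a kind and less RNA per cell cannot be told apart. No marker of another cell type was called higher. Neuron markers summed to 169 to 185 CPM in vehicle and 120 to 147 CPM at the high dose, leukocyte markers to 215 to 225 and 173 to 197 CPM, endothelial markers to 36.8 to 41.7 and 12.5 to 22.1 CPM and epithelial markers to 145 to 158 and 78.2 to 119 CPM. Of these lists, 5 of 8 leukocyte, 3 of 7 endothelial, 4 of 7 epithelial and 1 of 6 liver markers passed the filter. Called lower were 3 of 7 tested neuron, 2 of 3 endothelial, 1 of 5 leukocyte (PTPRC), 1 of 4 epithelial (KRT18) and 0 of 1 liver markers. Beside these stand 12.8% of all genes. CD3E of T cells, CDH5 and VWF of endothelium, EPCAM and CDH1 of epithelium and ALB and TTR of liver did not pass. These had at most 5 expected counts in any of the 6 libraries.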

How the data were processed

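Poly(A) RNA libraries were made with a directional kit and read as paired 100 bp reads, per the labels' protocols. The authors deposited RSEM expected counts per gene on GRCh38. FastQC 0.11.9, Trim Galore 0.6.5, STAR 2.7.3a and RSEM 1.3.3 are named in the submitters' processing notes. The strand setting and annotation are not given in the sources used here. Symbols were matched for 41209 of 60675 identifiers.

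Expected counts were rounded. In edgeR 4.0.16 (R 4.3.3) all 60 libraries entered 1 model with a mean for each of 25 groups (35 residual degrees of freedom), TMM scaling, filterByExpr (minimum count 10, total 15) and a robust quasi-likelihood fit, tested two-sided with Benjamini-Hochberg adjustment over 18601 genes. An adjusted p is from edgeR, in that fit unless its sentence names another (without high replicate 3, or the 6 libraries alone). SE is derived from the F statistic. The script was tested on simulated data. Alternatives were DESeq2 1.42.0, other scalings and filters, each library left out, the 6 libraries alone, a replicate block and the length slope as a covariate. That slope used 10336 genes whose log2 CPM averaged 3 or more.

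Genes named were the 15 largest rises and falls called against vehicle, against the low dose and without high replicate 3, given an average log2 CPM of 2 or more and groups whose libraries did not overlap. The 3 leading called genes per list and direction, and members of 6 lists, were also named. Members and lists were chosen with earlier results of these data known. Total counts limit precision for genes near the filter. Some items are not reported here.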

Additional observations from a re-analysis of the deposited data

How the results depend on the processing

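Higher and lower genes at the high dose against vehicle numbered 2080 and 2380. They were 3612 and 3574 with the length covariate, 689 and 1132 with the 6 libraries alone, 1239 to 2310 and 1649 to 2485 with each library left out, and 1443 and 1647 with no filter on low counts. DESeq2 gave 2212 and 2461.

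High against low dose gave 1197 and 1868. These were 706 and 1240 with no filter, 2518 and 2849 with the covariate, 262 and 612 with the 2 groups alone, and 643 to 1499 and 1214 to 2021 with each library left out. Low dose against vehicle gave 54 and 46. These were 12 and 5 with no filter, 950 and 890 with the covariate, 1192 and 1358 with the 2 groups alone, 140 and 164 with DESeq2, and 11 to 30 and 1 to 21 with each library left out.

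Deviations from the group mean correlated between same-numbered high and vehicle libraries at -0.19, 0.07 and -0.14. Between same-numbered high and low libraries they correlated at 0.002, 0.10 and 0.10. With 3 libraries per group, these values cannot settle whether replicate numbers pair the samples. With the 6 libraries alone and a replicate block, edgeR called 0 higher and 0 lower genes, while 1645 and 2035 had an unadjusted p under 0.05. For high against low that block gave 119 and 349, and for low against vehicle 1041 and 1149. A replicate block over all libraries gave 2060 and 2382 for high against vehicle, and 57 and 70 for low against vehicle. The covariate changed the sign of 12 of 53 list medians, among them those of ribosomal proteins, complex I, proteasome and amino acid transporters, and moved a median by at most 0.56. Leaving out high replicate 3 changed the sign of 4. The cause of these shifts was not tested. Depth limits the test most for genes near the filter on counts.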
